A study of Mus musculus with 6 samples.

Results

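The genes described here encode the proteins of the mitochondrial ribosome, and their messenger RNA was compared between hearts of TNFαDes-/- and Des-/- mice. They were all genes of the array whose symbol is Mrpl or Mrps followed by digits, with an end letter allowed. This gave 76 of 18193 measured genes, 47 of the large subunit (Mrpl) and 29 of the small subunit (Mrps). The study measured heart RNA on 6 Affymetrix expression arrays, 3 for each genotype. Both genotypes lack desmin, a muscle intermediate filament protein whose loss gives mice a cardiomyopathy. TNFαDes-/- hearts in addition overexpress the inflammatory cytokine TNF-α in a cardiac-specific way, from a promoter not given in the sources at hand. All mice were 3 months old. Des-/- mice were of the 129SV strain and TNFαDes-/- mice of a mixed 129SV/C57 background, and the effects of strain and of the transgene cannot be told apart. The labels describe RNA of 3 hearts pooled per genotype before labelling, whereas the design text gives 3 mice. The arrays of a group may therefore repeat 1 pool, in which case the p-values rest on technical spread alone. No wild-type hearts and no hearts with TNF-α overexpression but intact desmin were analysed.

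The mitochondrial ribosome sits at the inner membrane of the organelle and translates the few proteins that mitochondrial DNA encodes, all of them parts of the respiratory chain and ATP synthase. Its RNA comes from mitochondrial DNA, but all its proteins are encoded in the nucleus, made in the cytosol and imported. Some descend from proteins of the bacterial ribosome and others were added in mitochondria. Inherited defects of Mrpl3, Mrpl44 or Mrps22 cause cardiomyopathy in patients.

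The arrays differed in the spread of their signals. On the deposited log2 scale, the 99th percentile was 12.30 on Des-/- replicate 1, 11.77 and 11.71 on Des-/- replicates 2 and 3, and 12.31 to 12.34 on the TNFαDes-/- arrays. Bright probe sets were therefore read on the deposited scale and again after quantile normalization, which gives every array the same distribution. In a principal component analysis, 66.8% of the variance lay along a component that divided the genotypes and 19.2% along a second that set Des-/- replicate 1 apart. The 3' minus 5' signal of Gapdh, a sign of RNA quality, lay between -0.05 and 0.01 (log2) on the Des-/- arrays and between 0.28 and 0.34 on the TNFαDes-/- arrays. Its part in the results was not tested. Tnf read 5.79, 5.85 and 5.97 on the Des-/- arrays and 6.0, 6.09 and 5.73 on the TNFαDes-/- arrays, so the groups overlapped and it gave no check of the labels. Des, deleted in both genotypes, read 8.42, 8.43 and 8.33 against 8.75, 8.88 and 8.73. The sources at hand do not give whether these probe sets lie within the transgene or the deleted stretch. All 9 cardiomyocyte markers lay above the gene median of every array.

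On the deposited values, 15 of the 76 mitochondrial ribosomal protein genes rose in TNFαDes-/- hearts and 1 fell (limma adjusted p below 0.05). Of all genes, 15.2% rose and 6.05% fell. The median log2 change of the 76 genes was 0.19, against 0.04 over all genes, and 59 of them had a positive change. The changes ran from -0.47 to 0.90, and no gene that passed the test changed by as much as 2-fold. The 3 arrays of each genotype did not overlap for 28 genes that were higher in TNFαDes-/- hearts (24.3% of all genes) and for 4 that were lower (13.7% of all genes).

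After quantile normalization the counts lay near the shares of all genes, and the median was slightly below 0. There 7 genes rose, where 12.0% of all genes rose, and 10 fell, where 10.4% of all genes fell. The median change was -0.05, against -0.004 over all genes, with 31 positive and 45 negative changes. Between the scales, 28 of the 76 genes changed sign. No gene rose on one scale and fell on the other. The groups did not overlap for 17 higher genes (20.6% of all genes) and 23 lower ones (19.0% of all genes). The 7 genes that rose after quantile normalization had also risen on the deposited values, where both calls held for 11.5% of all genes, and 1 gene fell on both scales (6.01% of all genes).

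**Figure D1:**
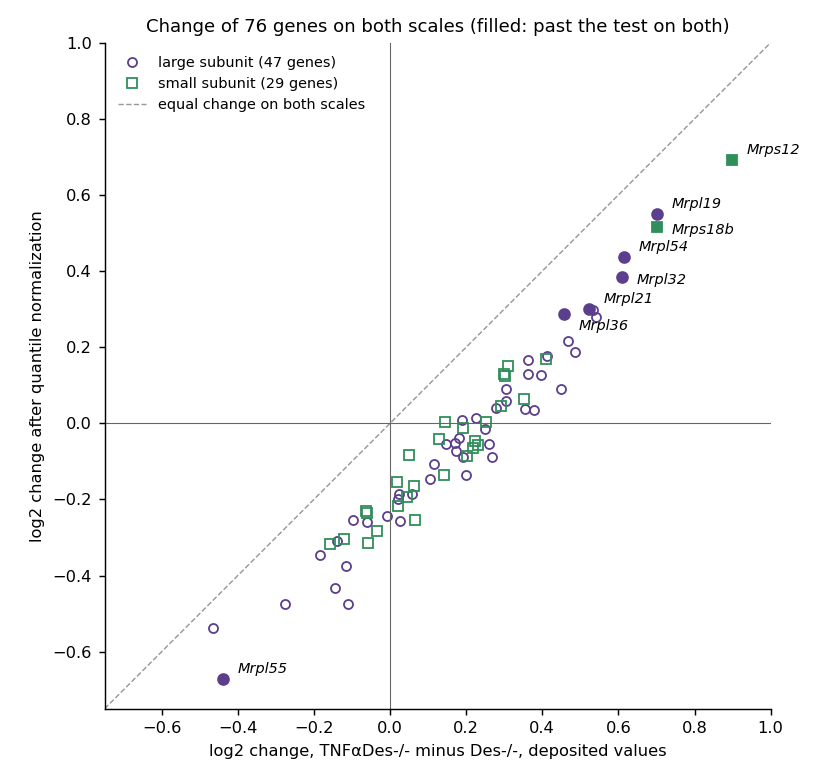
Log2 change (TNFαDes-/- minus Des-/-) of each of the 76 genes on the deposited values (x axis) and after quantile normalization (y axis), circles for the 47 large subunit and squares for the 29 small subunit genes, filled where the test was passed on both scales. All points lie below the line of equal change, and 28 lie on opposite sides of 0 on the x and y axes.

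The probe sets of these genes were bright. Across the 76 genes, level and change correlated at 0.19 (Pearson) as deposited and at -0.03 after quantile normalization. Of the 76 genes, 69 belonged to the brightest of 5 groups of equal size into which all genes were divided by mean signal, 6 to the next and 1 to the middle group. In the brightest group, the median deposited change of all genes was 0.27, the highest of the 5 groups, and 31.2% of them rose. The mitochondrial ribosomal protein genes in that group had a median of 0.20, and 14 of the 69 rose. After quantile normalization the group had a median of 0.02 over all genes and -0.05 over these 69, of which 6 rose and 9 fell; of all genes in the group, 19.8% rose and 17.5% fell. Within the brightest group, the mitochondrial ribosomal protein genes thus had a lower median than all genes on both scales, a difference that was not tested. That group spans levels of 8.40 to 14.68 (log2), and the 76 genes had a median level of 9.49. Genes of the same level were not compared.

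**Figure D2:**
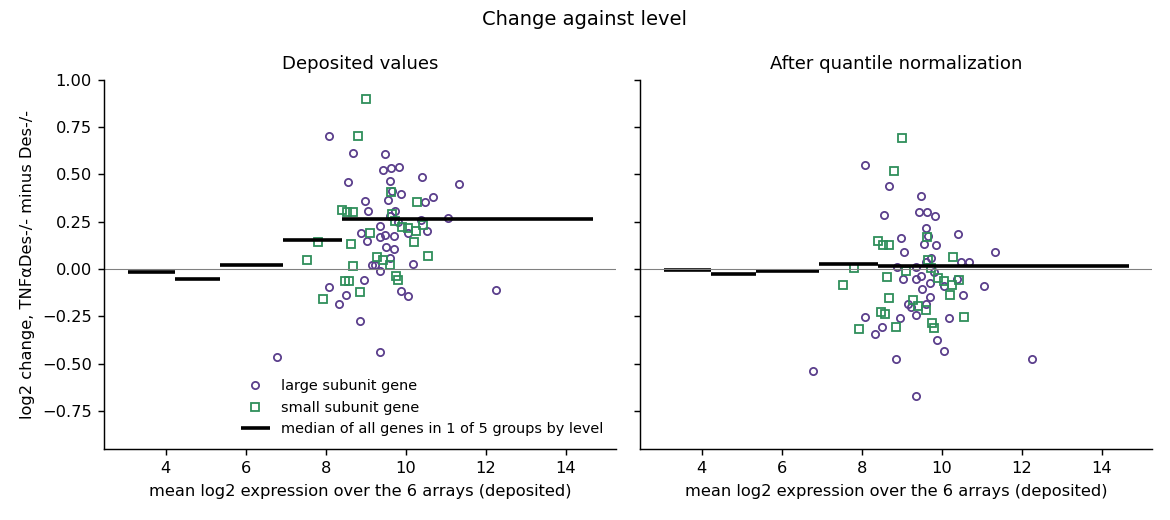
Log2 change against the mean log2 expression over the 6 arrays for each gene, on the deposited values (left) and after quantile normalization (right), with the median change of all genes in each of 5 groups by level drawn as a bar. On the deposited values the bar of the brightest group lies at 0.27, and most circles and squares in that group lie under it.

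On the deposited values, the level of these genes differed within the Des-/- group. The median over the 76 genes was 9.59 on Des-/- replicate 1, 9.35 on replicate 2 and 9.27 on replicate 3, and 9.62, 9.60 and 9.70 on the TNFαDes-/- arrays. Des-/- replicate 1 thus stood close to the TNFαDes-/- arrays and apart from the other Des-/- arrays. It was the highest Des-/- array for 69 of the 76 genes (90.8%), against 46.2% of all genes. Against the mean of replicates 2 and 3 the median change of the TNFαDes-/- arrays was 0.30, and against replicate 1 it was -0.02. Compared with replicate 1, all TNFαDes-/- arrays were higher for 29 genes (37.5% of all genes) and all were lower for 33 (28.8% of all genes).

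The count of genes that rose moved with each array left out. Without Des-/- replicate 1, 39 rose and 2 fell on the deposited values, where 23.4% and 8.56% of all genes did. After quantile normalization of the other 5 arrays, 7 rose and 17 fell, where 12.9% and 13.5% of all genes did. Leaving out Des-/- replicate 2 or replicate 3 left 4 genes that rose on the deposited values, where 8.82% and 8.57% of all genes did. Leaving out TNFαDes-/- replicate 1, 2 or 3 left 6, 9 or 5, where 8.34%, 14.4% and 8.11% of all genes rose. With Des-/- replicate 1 as the only Des-/- array, 3 genes rose and 0 fell on both scales, where 4.85% and 3.87% of all genes did on the deposited values and 6.37% and 4.77% after quantile normalization. That lone array is assumed to vary like the others. The 3 genes were Mrps12, Mrps18b and Mrpl19.

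**Figure D3:**
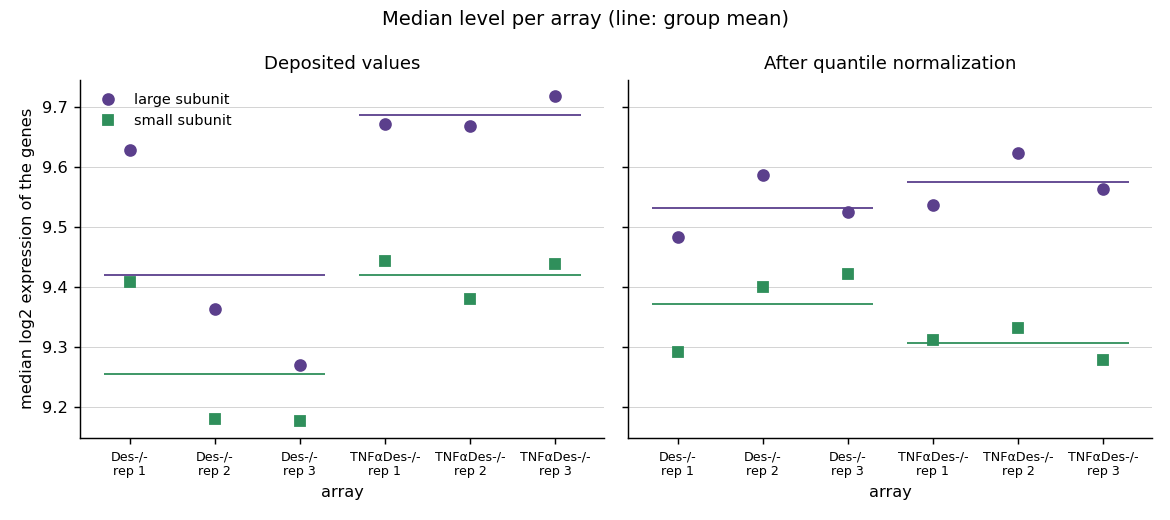
Median log2 expression of the large subunit genes (circles) and small subunit genes (squares) on each of the 6 arrays, as deposited (left) and after quantile normalization (right), with lines for the mean of each group of arrays. As deposited, Des-/- replicate 1 (9.63 and 9.41) lies near the TNFαDes-/- arrays and above Des-/- replicates 2 and 3, and after quantile normalization it is the lowest Des-/- array.

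Mrps12, the protein of the small subunit's decoding centre, had the largest rise. It read 8.54, 8.59 and 8.52 (log2) on the Des-/- arrays and 9.51, 9.44 and 9.39 on the TNFαDes-/- arrays. Every TNFαDes-/- array lay above every Des-/- array, Des-/- replicate 1 included. The change was 0.90 ± 0.09 (log2, SE, n = 3 and 3), or 1.86-fold (limma adjusted p = 0.000433). After quantile normalization it was 0.69 ± 0.11 (adjusted p = 0.00293).

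Mrps18b, a relative of bacterial ribosomal protein S18, read 8.51, 8.46 and 8.36 on the Des-/- arrays and 9.15, 9.05 and 9.23 on the TNFαDes-/- arrays. The groups were apart, and the Des-/- arrays lay close together. The change was 0.70 ± 0.10, or 1.63-fold (limma adjusted p = 0.0019), and 0.52 ± 0.09 after quantile normalization (adjusted p = 0.00472). Mrpl19, which lies at the interface between the subunits, read 7.84, 7.71 and 7.62 against 8.39, 8.38 and 8.51. Here too the groups were apart, with a change of 0.70 ± 0.10 (limma adjusted p = 0.00226) and 0.55 ± 0.08 after quantile normalization (adjusted p = 0.00191). Its brightest probe set is of a kind that can bind transcripts of other genes; without such probe sets the change was 0.57 and did not pass (adjusted p = 0.0833), nor did it after quantile normalization (0.47, adjusted p = 0.0759). Mrps12 has only a probe set of that kind, so the same check gave no value for it.

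The other 4 genes that rose on both scales belong to the large subunit. Mrpl54, a protein with no bacterial counterpart, read 8.64, 8.32 and 8.13 on the Des-/- arrays and 9.05, 8.94 and 8.95 on the TNFαDes-/- arrays. Its change was 0.61 ± 0.14 (limma adjusted p = 0.0142), with the Des-/- arrays more spread than the TNFαDes-/- arrays. Mrpl32, which becomes functional only after cleavage by the mitochondrial m-AAA protease, read 9.58, 9.02 and 8.92 against 9.77, 9.67 and 9.90. Its Des-/- replicate 1 came close to the lowest TNFαDes-/- array, and the change was 0.61 ± 0.17 (adjusted p = 0.0358). Mrpl36, the counterpart of a very small bacterial protein, read 8.62, 8.19 and 8.13 against 8.80, 8.73 and 8.78. Again Des-/- replicate 1 was the array nearest to the TNFαDes-/- group, and the change was 0.46 ± 0.14 (adjusted p = 0.0458). After quantile normalization the changes were 0.44 for Mrpl54 (adjusted p = 0.0116), 0.39 for Mrpl32 (adjusted p = 0.025) and 0.29 for Mrpl36 (adjusted p = 0.0493).

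Mrpl21 read 9.29, 9.14 and 9.03 on the Des-/- arrays and 9.65, 9.66 and 9.72 on the TNFαDes-/- arrays. The groups were apart, and the change was 0.52 ± 0.10 (limma adjusted p = 0.00829) and 0.30 ± 0.09 after quantile normalization (adjusted p = 0.0377). Its other 2 probe sets did not show the rise: the mean of all 3 gave 0.09 on the deposited values (adjusted p = 0.529) and -0.0047 after quantile normalization (adjusted p = 0.978). Leaving out any single array ended its call after quantile normalization (adjusted p 0.0554 to 0.107).

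Mrpl55, named as a large subunit protein, was the only gene that fell on both scales. It read 9.61, 9.61 and 9.51 on the Des-/- arrays and 9.08, 9.11 and 9.21 on the TNFαDes-/- arrays. No array of either group reached the other, and Des-/- replicate 1 stood with the other Des-/- arrays. The change was -0.44 ± 0.09 (limma adjusted p = 0.0127) and -0.67 ± 0.12 after quantile normalization (adjusted p = 0.00466). On the deposited values its call was lost without Des-/- replicate 2 or TNFαDes-/- replicate 1, while leaving out any single array after quantile normalization kept it.

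How firmly these 8 calls stood differed. Mrps12 and Mrps18b passed under each alternative tried that gave a value, on both scales. With Des-/- replicate 2 left out, Mrps12, Mrps18b, Mrpl19 and Mrpl21 still passed on the deposited values, and the same 4 genes did with TNFαDes-/- replicate 1 left out. Mrpl32 and Mrpl36 passed under neither, nor without Des-/- replicate 3, TNFαDes-/- replicate 2 or TNFαDes-/- replicate 3. Mrpl54 was lost in the same cases except without TNFαDes-/- replicate 2.

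**Figure D4:**
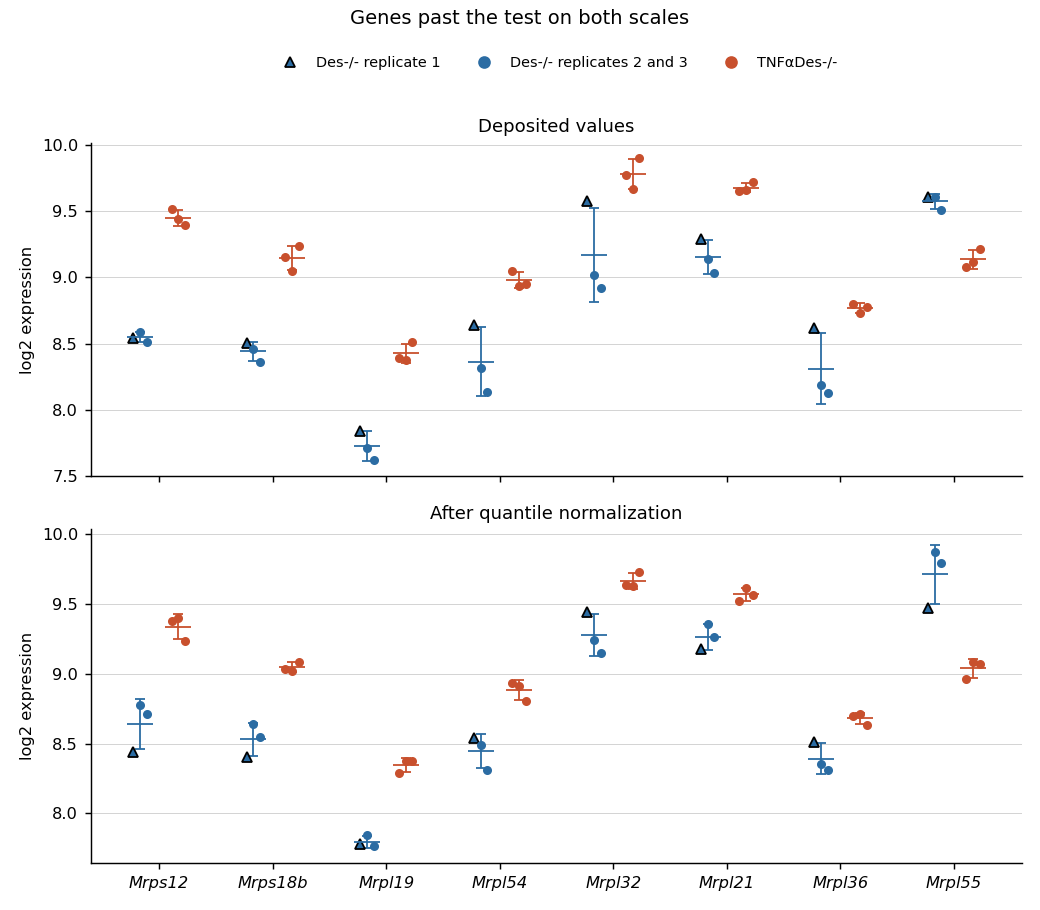
Log2 expression on each of the 6 arrays for the 8 genes past the test on both scales, as deposited and after quantile normalization, with a triangle for Des-/- replicate 1, dots for the other arrays, and the mean and SD of each group. For 7 genes every TNFαDes-/- array lies above every Des-/- array on both scales, and for Mrpl55 every one lies below.

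A further 8 genes rose on the deposited values alone, 7 of them in the large subunit. Their deposited changes were 0.31 to 0.54, and after quantile normalization 0.09 to 0.30. Of all genes, 15.2% rose on the deposited values and 11.5% rose on both scales. Mrpl52 read 9.73, 9.53 and 9.43 on the Des-/- arrays and 9.98, 10.20 and 10.13 on the TNFαDes-/- arrays, a change of 0.54 ± 0.12 (limma adjusted p = 0.012). The groups were apart. Its next 2 probe sets by brightness rose on both scales, by 0.78 and 0.75 as deposited. After quantile normalization they rose by 0.57 and 0.54 (limma adjusted p = 0.00767 and 0.00385 over all probe sets). The dimmest Mrpl52 probe set changed by 0.02 as deposited and did not pass. Mrpl17 changed by 0.53 ± 0.16 (adjusted p = 0.0438), and its Des-/- replicate 1, at 9.73, came within 0.07 of the lowest TNFαDes-/- array. Mrpl27, a protein next to the peptidyl transferase centre, changed by 0.49 ± 0.12 (adjusted p = 0.0212). Mrpl3 rose by 0.47 ± 0.10 (adjusted p = 0.0112). It read 9.47, 9.30 and 9.32 against 9.77, 9.87 and 9.86, groups that did not overlap. The next brightest probe set of Mrpl3 went the other way, by -0.31 as deposited, where it did not pass, and by -0.46 after quantile normalization, where it fell (adjusted p = 0.0202 over all probe sets). The other 2 probe sets of Mrpl17, both much dimmer, changed by -0.26 and -0.20 and did not pass. The others were Mrpl33, Mrpl39 and Mrpl45, the last of which sits where the growing protein leaves the ribosome for the inner membrane, and Mrps18c.

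After quantile normalization alone, 9 genes fell, with changes of -0.47 to -0.28 there and of -0.28 to -0.03 on the deposited values. They were Mrpl2, Mrpl14, Mrpl28, Mrpl37, Mrpl42, Mrpl50, Mrps28, Mrps31 and Mrps35. Of all genes, 10.4% fell after quantile normalization and 6.01% fell on both scales. Mrpl42 had the smallest adjusted p of the 9 genes. As deposited it read 12.63, 12.18 and 12.08 on the Des-/- arrays and 12.18, 12.18 and 12.19 on the TNFαDes-/- arrays, which overlapped. After quantile normalization it read 12.43, 12.54 and 12.48 against 11.98, 12.03 and 12.01, which did not overlap (change -0.47 ± 0.08, limma adjusted p = 0.00393). Mrpl2, a core protein near the peptidyl transferase centre, changed by -0.38 ± 0.08 there (adjusted p = 0.0128) and by -0.12 ± 0.13 as deposited.

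Of the 2 subunits, the large one, with 47 of the 76 genes, held most of the calls. As deposited, 12 of 47 large subunit genes rose (25.5%) and 1 fell (2.13%), with a median change of 0.20. Of the 29 small subunit genes 3 rose (10.3%) and 0 fell, with a median of 0.14. Of all genes, 15.2% rose and 6.05% fell. At an unadjusted limma p below 0.05, 28 of the 76 genes were higher and 2 were lower, with 0 small subunit genes lower. The share of all genes at that cut is not given here. After quantile normalization the large subunit had 5 that rose (10.6%), 7 that fell (14.9%) and a median of -0.05. The small subunit had 2 that rose (6.90%), 3 that fell (10.3%) and a median of -0.07. On that scale 12.0% of all genes rose and 10.4% fell. The medians of the subunits differed by 0.06 as deposited and by 0.01 after quantile normalization, a difference that was not tested. Array by array, the large subunit median was 9.63, 9.36 and 9.27 in Des-/- and 9.67, 9.67 and 9.72 in TNFαDes-/- hearts. The small subunit median was 9.41, 9.18 and 9.18 against 9.44, 9.38 and 9.44. In both subunits Des-/- replicate 1 stood 0.2 or more above the other Des-/- arrays, and for the small subunit it lay within the TNFαDes-/- range.

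The small subunit genes with the largest positive changes that did not rise on both scales were Mrps18c, Mrps34 and Mrps2. Mrps18c, which holds the place of bacterial S18, read 9.5, 9.45 and 9.27 against 9.85, 9.67 and 9.93, a change of 0.41 ± 0.11 (limma adjusted p = 0.0329). Mrps34 changed by 0.35 ± 0.13 (adjusted p = 0.0997) and Mrps2 by 0.31 ± 0.13 (adjusted p = 0.124); neither passed. At the other end, Mrps11 changed by -0.16, Mrps31 by -0.12 and Mrps25 by -0.06. In the large subunit the lowest values outside Mrpl55 were those of Mrpl1 (-0.47 ± 0.21, adjusted p = 0.149), Mrpl14 (-0.28 ± 0.10, adjusted p = 0.096) and Mrpl37 (-0.18 ± 0.11, adjusted p = 0.27). Mrpl1 read 7.34, 6.87 and 6.83 against 6.78, 6.11 and 6.76. Its groups did not overlap, but TNFαDes-/- replicate 2 lay far below the other TNFαDes-/- arrays. The second brightest probe set of Mrpl1, with a mean of 6.42 against 6.78, went the other way, by 0.47, and did not pass.

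The symbols do not always name the place of a protein. Structures of the ribosome put Mrps18a and Mrps30 in the large subunit, and Mrps36 is now known as a part of the 2-oxoglutarate dehydrogenase complex. The change of Mrps18a was 0.25 ± 0.12 (limma adjusted p = 0.184), of Mrps30 0.30 ± 0.10 (adjusted p = 0.0641) and of Mrps36 0.07 ± 0.17 (adjusted p = 0.83). None of the 3 passed on either scale. Of the 3 S18 relatives, Mrps18b thus rose on both scales, Mrps18c on the deposited values alone and Mrps18a on neither; whether their changes differ was not tested. Of the genes known from cardiomyopathy, Mrpl44 changed by 0.12 ± 0.12 (adjusted p = 0.535) and Mrps22 by -0.06 ± 0.11 (adjusted p = 0.737), both with overlapping groups. Mrpl12, which recruits translation factors to the ribosome, read 10.86, 10.32 and 10.30 against 10.86, 10.83 and 10.94. Its change of 0.38 ± 0.15 did not pass (adjusted p = 0.12), and Des-/- replicate 1 lay within the TNFαDes-/- range.

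The genes were also divided by descent. Of 45 genes with a counterpart in bacteria, 11 rose (24.4%) and 0 fell on the deposited values, with a median of 0.22. The 45 include the S18 relatives Mrps18a, Mrps18b and Mrps18c. Of 29 that are found in mitochondria only, 4 rose (13.8%) and 0 fell, with a median of 0.17. Of all genes, 15.2% rose and 6.05% fell. After quantile normalization 6 genes with a bacterial counterpart rose (13.3%) and 4 fell (8.89%), with a median of -0.02. Of those found in mitochondria only, 1 rose (3.45%) and 5 fell (17.2%), with a median of -0.08. On that scale 12.0% of all genes rose and 10.4% fell. The subunit was read from the symbol here too. The 10 genes with a small subunit symbol and no bacterial counterpart therefore include Mrps30. As deposited, 0 of these 10 rose and 0 fell, with a median of 0.04. After quantile normalization 0 of them rose and 2 fell, with a median of -0.15. The remaining genes, Mrpl55 and Mrps36, were not placed in either class. Differences between these classes were not tested.

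Of the 76 genes, 42 had several probe sets, up to 8, and the values above rest on the brightest. In 22 of the 42 the probe sets gave changes of both signs, but in 0 of them did 1 probe set rise and another fall past the test. The second brightest probe set shared the sign of the brightest in 31 of 42 genes. Over all 156 probe sets, tested beside all probe sets with a gene name, 14 rose (11.7% of all) and 3 fell (5.62% of all) on the deposited values. After quantile normalization 10 rose (9.96% of all) and 14 fell (9.08% of all). The 3 that fell on the deposited values belonged to Mrpl55, Mrpl9 and Mrps5, and in Mrpl9 and Mrps5 the brightest probe set did not fall (0.17 and 0.14).

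Promoter sequences are shown for Mrps12 and Mrps18b, the genes whose rise held under each alternative that gave a value, and for Mrpl32 and Mrpl36, the genes among those that rose on both scales whose promoter held a searched motif. Each runs from 250 bases before to 50 bases after the annotated start, 5′ to 3′ on the gene's strand, from RefSeq on GRCm38.p6. Capitals mark a motif match. Mrps12 lies on the minus strand (chr7:28741772-28742071), Mrps18b on the minus strand (chr17:35916391-35916690), Mrpl32 on the minus strand (chr13:14612988-14613287) and Mrpl36 on the plus strand (chr13:73330759-73331058).
Mrps12: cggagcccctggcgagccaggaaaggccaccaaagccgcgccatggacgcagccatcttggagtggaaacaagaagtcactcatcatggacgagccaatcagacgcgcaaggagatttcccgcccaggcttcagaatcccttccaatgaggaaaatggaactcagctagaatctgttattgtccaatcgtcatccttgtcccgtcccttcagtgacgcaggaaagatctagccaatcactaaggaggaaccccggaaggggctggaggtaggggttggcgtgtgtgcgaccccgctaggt
Mrps18b: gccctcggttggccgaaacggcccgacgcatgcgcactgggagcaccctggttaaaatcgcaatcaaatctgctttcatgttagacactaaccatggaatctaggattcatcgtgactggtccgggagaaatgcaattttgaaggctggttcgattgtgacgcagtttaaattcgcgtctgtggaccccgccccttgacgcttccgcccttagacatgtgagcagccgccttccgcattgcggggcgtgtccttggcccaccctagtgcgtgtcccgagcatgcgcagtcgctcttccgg
Mrpl32: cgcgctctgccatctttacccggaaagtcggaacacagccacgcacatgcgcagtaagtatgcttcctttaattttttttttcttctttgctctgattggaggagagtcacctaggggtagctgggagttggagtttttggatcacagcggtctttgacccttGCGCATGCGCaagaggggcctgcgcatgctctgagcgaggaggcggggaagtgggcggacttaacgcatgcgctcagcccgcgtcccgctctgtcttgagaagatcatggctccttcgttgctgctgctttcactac
Mrpl36: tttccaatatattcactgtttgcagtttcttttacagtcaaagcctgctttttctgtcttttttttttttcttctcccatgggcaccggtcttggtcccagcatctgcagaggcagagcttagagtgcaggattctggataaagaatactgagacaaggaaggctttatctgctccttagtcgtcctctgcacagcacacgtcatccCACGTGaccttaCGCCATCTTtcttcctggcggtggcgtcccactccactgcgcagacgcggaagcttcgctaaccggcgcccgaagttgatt
The capitals in Mrpl32 are the letters searched for NRF1, a nuclear regulator of mitochondrial genes. Those in Mrpl36 are an E-box and, on the opposite strand, the letters searched for YY1. The first 2 sequences hold no match to the 7 motifs searched. No promoter was at hand for Mrpl19 and Mrpl54, which also rose on both scales, so neither was searched.

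RefSeq entries were found for 67 of the 76 genes, with 73 promoters. Each motif was searched on both strands, and no motif contains another. The NRF1 motif (GCGCA, any base, GCGC) was in 12 promoters of the mitochondrial ribosomal protein genes, or 16.4%, against 4.60% of all 32851 promoters and 7.43% of those of measured genes. CCGGAAGT (ETS factors, among them GABPA) was also in 12, or 16.4%, against 3.89% and 5.83%. AAGATGGCG (YY1) was in 8, or 11.0%, against 1.40% and 2.09%. Together these 3 motifs marked 30 promoters, or 41.1%, against 9.24% of all promoters and 14.3% of those of measured genes. The E-box CACGTG (MYC) was in 7, or 9.59%, against 7.15% of all promoters and 8.72% of those of measured genes. These 7 belong to 5 genes, since Mrpl2 has several promoters. The NRF2 antioxidant element (TGAC, any 3 bases, GCA) was in 4, or 5.48%, against 3.04% and 2.92%. TCAAGGTCA (ERR) and TTGCATCA (ATF4) were in 0, against 0.423% and 0.895% of all promoters. Of the 30 genes with an NRF1, ETS or YY1 match, 10 rose and 0 fell as deposited, and 3 of the 37 without a match rose and 1 fell. Of all genes, 15.2% rose and 6.05% fell. In the brightest group, which holds most of the 76 genes, 31.2% of all genes rose and 5.06% fell. After quantile normalization 2 rose and 3 fell with a match, and 3 rose and 5 fell without. On that scale 12.0% of all genes rose and 10.4% fell, and in the brightest group 19.8% and 17.45% did. The medians were 0.26 with and 0.15 without a match as deposited, and 0.01 and -0.09 after quantile normalization. These splits were made with the changes known, and have no test.

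The other components of mitochondrial protein synthesis held genes that rose and genes that fell. Over all genes, 15.2% rose and 6.05% fell as deposited, and 12.0% rose and 10.4% fell after quantile normalization. Of the subunits with other names, 4 were measured and 1 rose. Gadd45gip1 (also known as Mrpl59), a large subunit protein, read 8.89, 8.70 and 8.81 on the Des-/- arrays and 9.42, 9.47 and 9.56 on the TNFαDes-/- arrays. The groups were well apart, with a change of 0.69 ± 0.10 (limma adjusted p = 0.00209) and 0.48 after quantile normalization (adjusted p = 0.00872). The changes of Chchd1 (0.29), Dap3 (0.08) and Ptcd3 (-0.24), all of the small subunit, did not pass on the deposited values, and Ptcd3 fell after quantile normalization (-0.49, adjusted p = 0.00357).

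Of 11 measured translation factors, 2 rose and 1 fell on the deposited values, where 15.2% and 6.05% of all genes did. Mtrf1l, a release factor that ends translation, rose by 0.46 ± 0.11 (limma adjusted p = 0.0172), and Mtif3, an initiation factor, by 0.35 ± 0.10 (adjusted p = 0.0351). Gfm2, which splits the ribosome after termination, fell by 0.43 ± 0.10 on the log2 scale (adjusted p = 0.0204). After quantile normalization Mtrf1l still rose and Gfm2 still fell (0.45 and -0.59), and 1 other factor fell. Of 26 assembly factors, 6 rose and 1 fell on the deposited values. After quantile normalization 0 rose and 3 fell, where 12.0% and 10.4% of all genes did. Nsun4, an RNA methyltransferase of the ribosome, changed by 0.42 and the helicase Ddx28 by 0.43. Mpv17l2 changed by 0.37 and Afg3l2, a subunit of the m-AAA protease that matures Mrpl32, by 0.35. Rbfa, a factor of small subunit maturation, fell on both scales (-0.37 and -0.56).

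Of 17 genes of mitochondrial DNA upkeep and transcription, 1 rose and 0 fell on the deposited values, and 2 rose and 3 fell after quantile normalization. Trmt10c, a subunit of mitochondrial RNase P, rose on both scales (0.61 and 0.58). Of 13 regulators of mitochondrial biogenesis, 3 rose and 1 fell as deposited and 2 rose and 2 fell after quantile normalization. Over all genes, 15.2% rose and 6.05% fell as deposited, and 12.0% and 10.4% did after quantile normalization. Myc, a growth regulator, had the largest rise of all genes on these lists. It read 6.69, 6.72 and 6.64 on the Des-/- arrays and 7.76, 7.72 and 7.76 on the TNFαDes-/- arrays, 1.07 ± 0.09 higher (limma adjusted p = 0.000169) and 0.97 higher after quantile normalization. Gabpb1, the partner of GABPA, rose on both scales (0.37 and 0.37), and Pprc1, a coactivator of the PGC-1 family, on the deposited values (0.35). Esrrb fell on both (-0.43 and -0.52). Ppargc1a, which encodes PGC-1α, read 10.33, 8.88 and 8.95 against 9.82, 9.75 and 10.01; its Des-/- replicate 1 was the highest of all 6 arrays, and the change of 0.47 ± 0.34 did not pass (adjusted p = 0.369).

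Among related gene sets, the respiratory chain and ATP synthase had a like median on the deposited values and cytosolic ribosomal proteins a higher one. Of 82 respiratory chain and ATP synthase genes, 5 rose and 0 fell as deposited, with a median of 0.19. After quantile normalization 3 rose and 19 fell, with a median of -0.15. Of 43 cytosolic ribosomal protein genes, 21 rose and 1 fell as deposited, where the median was 0.51. Under quantile normalization 15 rose and 1 fell, at a median of 0.15. Of 16 mitochondrial aminoacyl-tRNA synthetases, which charge the transfer RNAs of the organelle, 1 rose and 0 fell as deposited, and after quantile normalization 1 rose and 1 fell. Their medians were 0.13 and -0.03. Over all genes, 15.2% rose and 6.05% fell as deposited, and 12.0% and 10.4% did after quantile normalization. The sets differ in brightness, and differences between them were not tested.

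**Figure D5:**
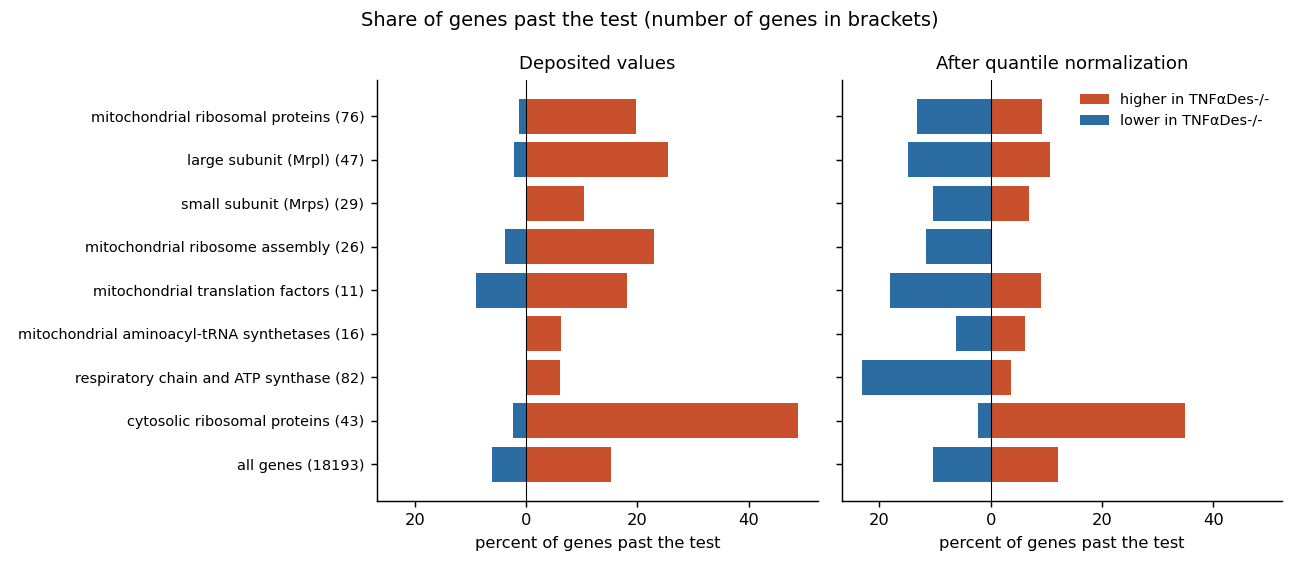
Share of genes (percent) that rose or fell past the test in each gene set, on the deposited values and after quantile normalization, beside all 18193 genes. On the deposited values 19.7% of the mitochondrial ribosomal protein genes rose, against 15.2% of all genes, and after quantile normalization 9.21% rose and 13.2% fell.

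Markers of other cell types moved between the same groups. Over all genes, 15.2% rose and 6.05% fell as deposited, and 12.0% and 10.4% did after quantile normalization. In bulk tissue, fewer cells of a type and less RNA per cell cannot be told apart. Of 8 macrophage markers 6 rose and 1 fell on both scales, and their summed level was 12.84 to 13.24 (log2) on the Des-/- arrays and 13.49 to 13.52 on the TNFαDes-/- arrays. Of 7 endothelial markers 4 fell as deposited and 5 after quantile normalization, with summed levels of 11.42 to 11.76 and 11.13 to 11.17. Of 9 cardiomyocyte markers 0 rose and 0 fell as deposited and 2 fell after quantile normalization, with summed levels of 16.94 to 17.65 and 17.56 to 17.60. Of 7 fibroblast markers 2 rose and 0 fell as deposited, and 1 rose and 3 fell after quantile normalization, with summed levels of 13.98 to 14.57 and 14.63 to 14.67. Of 4 measured adipocyte markers 2 fell as deposited and 3 after quantile normalization, with summed levels of 12.99 to 13.55 and 12.94 to 13.06. Of 7 smooth muscle and pericyte markers 1 rose and 1 fell as deposited, and 1 rose and 3 fell after quantile normalization, with summed levels of 12.87 to 13.45 and 13.82 to 13.91. The one that rose was Acta2, smooth muscle actin (1.89 as deposited). Of 3 measured red blood cell markers 1 fell on both scales, Alas2, an enzyme of haem synthesis (-1.75 as deposited), and the other 2 lay below the gene median of every array. Their summed levels were 7.75 to 8.42 and 6.52 to 6.68. Of 6 lymphocyte markers 0 passed the test, and 4 lay below the gene median of every array. The part of these cells in the changes of the mitochondrial ribosomal protein genes was not tested.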

How the data were processed

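Heart RNA was measured on 6 one-colour arrays, with groups and replicate numbers taken from the sample titles. The authors deposited log2 values made with RMA, per the submitters' processing notes (no version given). The sources at hand do not say whether RMA's quantile step was run. The number of arrays limits the precision, and depth does not apply.

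Of 45101 probe sets, 64 are controls, 34945 have 1 gene symbol, 932 several and 9160 none; only those with 1 symbol were used, and 4 probe sets that carry a mitochondrial ribosomal protein symbol beside others were left out. Gene identifiers of 34741 were found in RefSeq (GRCm38.p6), which changed 0 symbols. Each of 18193 genes is given by its brightest probe set (highest mean of the 6 arrays). Groups were compared with limma 3.58.1 (lmFit, eBayes) in R 4.3.3, with Benjamini-Hochberg adjusted p-values (all genes, threshold 0.05), on the deposited values and after quantile normalization of all probe sets. Changes are TNFαDes-/- minus Des-/-. Errors are standard errors of the fit, summed marker levels are log2 of the sum of linear signals, and brightness groups rank genes by mean deposited value. The fit was tested on simulated data. No test was made over a list of genes.

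The genes, lists, alternatives and tests were chosen with earlier results of these data known. The rule for named genes took those past the test on both scales, the 3 largest and 3 smallest other changes per subunit, genes whose probe sets passed in opposite directions (0 found), the Mrps18 relatives, Mrps30, Mrps36, the subunits with other names and up to 4 called genes per list. Other named genes were chosen after their values were seen. Lists were written from textbook knowledge, and entries without a value were not analysed here. Descent was assigned by textbook knowledge. Alternatives covered array scaling, variance models, array weights, the choice and filtering of probe sets, arrays left out and a replicate block. Replicate numbers did not pair the arrays. Tables and plots were made with pandas 2.3.3 and matplotlib 3.10.9.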

Additional observations from a re-analysis of the deposited data

How the results depend on the processing

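Array scaling moved the median of the set from above 0 to slightly below it. For all 76 genes, the large subunit and the small subunit, the median change was 0.19, 0.20 and 0.14 as deposited, -0.054, -0.053 and -0.065 after quantile normalization and -0.076, -0.067 and -0.079 after cyclic loess. The genes that rose numbered 15, 12 and 3 as deposited, 7, 5 and 2 after quantile normalization, and 5 in all, with 3 in the large subunit, after cyclic loess. Those that fell numbered 1, 1 and 0 as deposited, 10, 7 and 3 after quantile normalization, and 12, 8 and 4 after cyclic loess, where 11.8% of all genes rose and 11.0% fell. Array weights gave 43, 29 and 14 that rose and 2 that fell, all in the large subunit, with a small subunit median of 0.25, where 30.2% of all genes rose and 16.0% fell; on quantile-normalized values they gave 8 that rose and 22, 13 and 9 that fell, where 17.7% and 18.7% of all genes did.

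Leaving out single arrays gave 4 to 39 genes that rose (large 2 to 27, small 2 to 12) and 0 to 2 that fell (large 0 to 2, small 0) as deposited, with medians of 0.11 to 0.30 (large 0.14 to 0.32, small 0.085 to 0.28). After quantile normalization 3 to 7 rose (large 1 to 5, small 2) and 2 to 17 fell (large 2 to 10, small 0 to 7). The medians there were -0.085 to -0.040 (large -0.062 to -0.021, small -0.099 to -0.050). In these fits 8.11% to 23.4% of all genes rose and 3.06% to 8.56% fell as deposited. After quantile normalization 7.88% to 12.9% of all genes rose and 6.46% to 13.5% fell. Without Des-/- replicates 2 and 3, 3 rose (1 large) and 0 fell on both scales, and the medians were -0.015 (large 0.0075, small -0.060) as deposited and -0.00088 (large 0.015, small -0.056) after quantile normalization. The mean of all probe sets gave deposited medians of 0.12 for all genes, 0.12 for the large and 0.072 for the small subunit and 6 small subunit genes that rose, turned the change of Des to -0.0046 and that of Mrpl21 after quantile normalization to -0.0047. Without probe sets named _s_at or _x_at, 4 rose after quantile normalization, 3 large and 1 small. Shares of all genes under these choices of probe sets are not given here. Median centring, an intensity trend, robust hyperparameters and a filter on dim probe sets kept all these counts within 1.5 times. The other settings on quantile-normalized values were chosen after seeing the data.

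The deviations of same-numbered arrays correlated at 0.25, 0.31 and -0.30, so the numbers were not taken as pairs. With a replicate block, 14 genes rose and 2 fell as deposited, both in the large subunit. After quantile normalization 5 rose, 3 of them large, and 7 fell, 1 of them small. Shares of all genes under the block are not given here, so these counts are not read as a result about the set. Apart from scaling, the small number of arrays and the unlike Des-/- arrays limit what can be called; the cause of each shift was not tested.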

Other observations

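Many mitochondrial ribosomal protein genes start close to a gene that runs the other way. A start on the opposite strand within 1000 bases was found for 25 of the 67 genes with a RefSeq promoter (37.3%), against 2353 of 14452 measured genes (16.3%). Mrpl46 and Mrps11 start 42 bases from each other; their changes were 0.02 and -0.16, and neither passed the test. Mrps12 starts 147 bases from Sars2, the mitochondrial seryl-tRNA synthetase. Mrps12 changed by 0.90, whereas the change of Sars2 was -0.11 ± 0.21 (SE, limma adjusted p = 0.756). Mrpl32 starts 205 bases from Psma2, a subunit of the proteasome, and there the deposited changes were alike, 0.61 and 0.63 (adjusted p = 0.00742 for Psma2, which after quantile normalization changed by 0.26 and did not pass, adjusted p = 0.0712). Mrpl43 starts 116 bases from Twnk, the helicase that copies mitochondrial DNA. Mrpl43 changed by 0.41 and Twnk by 0.03, and neither passed. Of the 6 genes with such a neighbour that rose on the deposited values, 1 had a neighbour that rose too. Of all 25 neighbours 3 rose and 0 fell as deposited, and 1 rose and 0 fell after quantile normalization. Over all genes, 15.2% rose and 6.05% fell as deposited, and 12.0% and 10.4% did after quantile normalization.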
